A study of Homo sapiens with 7 samples.

Results

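The PIM kinases PIM1, PIM2 and PIM3 were examined as a family of 3 genes among 19970 protein-coding genes of chromosomes 1 to 22 and X. A peak was given to a PIM gene where its summit lay inside the gene, or within 50 kb of either end and nearer to that gene's end than to any other protein-coding gene's end. By this rule 104 of 323423 peaks in 6 lists belonged to the family: 56 to PIM1, 30 to PIM2 and 18 to PIM3. The genes were chosen by family name with earlier results of these data in view, among them the fold enrichments of OCA-B, OCT2 and OCT1 at PIM2. All values below are therefore descriptions, and no test was made.

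The cells were OCI-Ly7, an established human line from diffuse large B-cell lymphoma, grown in culture without a treatment named in the labels. Chromatin was sonicated and precipitated with an antibody to MED1, CREBBP, EP300, OCT1, OCT2 or OCA-B, and an input library without antibody served as the control of all 6. OCA-B (gene POU2AF1) is a B cell coactivator that joins the POU factors OCT2 and OCT1 on octamer DNA. The acetyltransferases CREBBP and EP300 mark active enhancers and promoters, and MED1 belongs to the Mediator complex. Each factor had 1 library of 1 cell line, so no value has a replicate check and the order of any levels cannot be set against a replicate spread.

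PIM proteins are serine and threonine kinases with no regulatory domain, active once made, so that cells set their activity mainly through the amount of protein. Cytokine receptors raise PIM transcription through JAK kinases and STAT factors, and the kinases then phosphorylate proteins of survival, cell division and translation such as BAD and CDKN1B. The genes are known from retroviral insertions in mouse lymphomas. In diffuse large B-cell lymphoma PIM1 is a frequent target of aberrant somatic hypermutation, and PIM2 is widely expressed in B-lineage tumours.

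The sequences before the 3 gene starts are shown because the lists hold octamer-binding factors and the starts differ in octamers. Each run gives the 250 bases before the start in the direction of the gene, from RefSeq (GRCh38.p14), with capitals for octamers (ATGCAAAT on either strand) that match exactly or with 1 mismatch. PIM1 lies on the plus strand (chr6:37169902-37170151 for the run), PIM2 on the minus strand (chrX:48919025-48919274) and PIM3 on the plus strand (chr22:49960522-49960771).
PIM1: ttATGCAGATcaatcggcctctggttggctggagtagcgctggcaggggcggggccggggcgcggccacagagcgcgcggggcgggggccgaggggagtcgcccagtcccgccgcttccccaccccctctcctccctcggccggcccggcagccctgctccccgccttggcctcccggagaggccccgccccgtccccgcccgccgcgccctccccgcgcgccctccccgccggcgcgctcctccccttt
PIM2: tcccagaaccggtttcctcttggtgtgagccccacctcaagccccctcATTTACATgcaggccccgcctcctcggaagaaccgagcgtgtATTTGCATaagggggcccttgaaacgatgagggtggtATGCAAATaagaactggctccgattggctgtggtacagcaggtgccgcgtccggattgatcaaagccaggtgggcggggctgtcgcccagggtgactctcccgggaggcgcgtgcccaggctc
PIM3: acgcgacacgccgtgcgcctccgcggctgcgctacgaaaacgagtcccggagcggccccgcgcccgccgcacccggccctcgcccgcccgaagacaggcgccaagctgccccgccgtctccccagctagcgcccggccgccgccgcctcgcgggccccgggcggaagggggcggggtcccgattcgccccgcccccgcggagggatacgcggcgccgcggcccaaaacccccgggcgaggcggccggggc

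The PIM2 window held 2 exact octamers, whereas the windows of PIM1 and PIM3 held none. Among 34961 RefSeq windows of the same kind (250 bases before to 50 after a start), 618 (1.77%) held an exact octamer and 14 (0.0400%) held 2 or more. The octamers of PIM2 began at positions −160 and −123 from the start and lay on opposite strands. A further site, at −202 from the PIM2 start, differed from the octamer by C4T, and the single site of PIM1, at −248 from its start, by A6G. Positions in these tokens count from 1 at the first A of ATGCAAAT, with the octamer's base first. With 1 mismatch allowed, a count added after the sequences were seen, 17.0% of windows held a site and 178 (0.509%) held 3 or more, as PIM2 did. The other motifs searched on both strands were the STAT site TTCNNNGAA (7.66% of windows), the E-box CACGTG (7.27%), the CRE core TGACG (24.5%), the GC box GGGCGG (15743 windows) and AGCT (74.1%), the core of a hypermutation hotspot. No PIM window held the first 3, GC boxes numbered 4 in PIM1, 1 in PIM2 and 5 in PIM3, and AGCT was found 2 times in PIM3 and 0 times in PIM1 and PIM2. These matches describe letters in the windows and not bound sites.

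PIM2 lies on chromosome X from 48913182 to 48919024. Its start held a peak of every list, and those of the octamer-binding factors and OCA-B were among the strongest in their lists. The OCA-B peak had a fold enrichment over input of 68.3 and stood 4th of 55361 peaks by fold. OCT2 reached 53.1 there, 120th of 73829, and OCT1 reached 56.1, 64th of 23571. Coactivator peaks at the same place were weaker within their lists. MED1 had a fold of 9.87 (6874th of 43508), CREBBP one of 10.8 (12555th of 44585) and EP300 one of 14.1 (13274th of 82569). All folds and ranks rest on the fold given per peak by the authors' peak caller. Folds of different lists are not on a common scale, since depth, duplicate rate and antibody differ, and only the place within a list is read here.

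Summits at the PIM2 start fell on or near the octamers printed above. The OCA-B summit lay at −157 from the start and at −0.5 bases from the centre of the octamer that begins at −160. Measured from the same centre in the direction of the gene, the CREBBP summit lay at 1.5, the OCT1 summit at 11.5, the OCT2 summit at −11.5 and the EP300 summit at −18.5 bases. MED1 was the farthest, at −83.5 bases. All 6 summits were nearer to this octamer than to the exact octamer at −123, and the MED1 summit was nearer still to the mismatched site (−41.5). The octamers lie closer together than the fragment lengths of 145 to 174 bases that the peak caller estimated, so occupancy of the one or the other cannot be told apart.

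**Figure D1:**
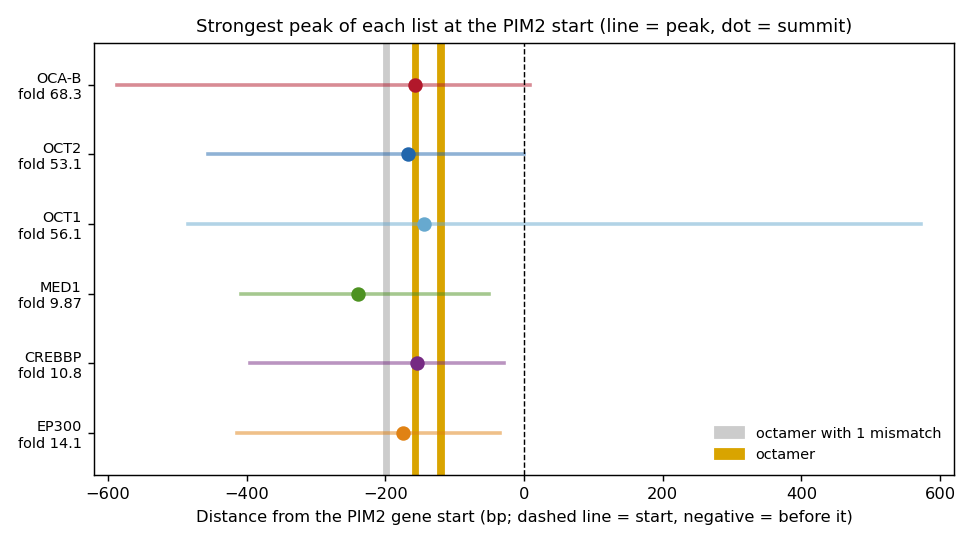
Strongest peak of each list at the PIM2 start, with distance from the start in bases on the x axis and the 6 lists as rows; a line is the extent of the peak, a dot its summit, and vertical bands are octamers, exact or with 1 mismatch. The OCA-B and CREBBP dots sit on the octamer that begins at −160, and the MED1 dot sits to the left of all 3 bands.

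Other genes with 2 exact octamers in the window were compared with PIM2. Of 22131 windows of protein-coding genes, 10 held 2. In these, 7 overlapped an OCA-B peak, 9 an OCT2 peak and 7 an OCT1 peak, and 4 a MED1 peak. Among the 355 windows with 1 octamer, 44.5% overlapped OCT2, 41.1% OCA-B, 41.4% OCT1 and 25.6% MED1. Among the 21766 windows with none the shares were 21.6%, 29.6%, 35.1% and 15.4% in the same order. Strong peaks were also found in windows without an octamer. Of these windows, 19 had at least the OCT1 fold of PIM2, 9 at least its OCT2 fold and 1 at least its OCA-B fold. Among the 355 windows with 1 octamer the numbers were 1, 1 and 0. PIM2 had the highest OCA-B and OCT2 fold of the 10, and POLM, a DNA polymerase gene, had a higher OCT1 fold (85.4). The 3 genes next to PIM2 by OCA-B fold, chosen after their values were seen, were PRRC2A (47.7), POLM (47.2) and E2F3 (46.1), and their sites are printed with 11 bases on each side, the octamers in capitals, for comparison with PIM2.
PIM2, octamer at chrX:48919177-48919184: accgagcgtgtATTTGCATaagggggccct
PIM2, octamer at chrX:48919140-48919147: atgagggtggtATGCAAATaagaactggct
PRRC2A, octamer at chr6:31620517-31620524: ccctcctctttATGCAAATaacctccgcat
PRRC2A, octamer at chr6:31620625-31620632: ccccgccctttATGCAAATtaaggggcgtg
POLM, octamer at chr7:44082689-44082696: cctctgccgttATTTGCATggaggcgggtc
POLM, octamer at chr7:44082577-44082584: ggagaggcctcATTTGCATagggcggggcc
E2F3, octamer at chr6:20401646-20401653: caaggaggcctATGCAAATagggtccctgt
E2F3, octamer at chr6:20401802-20401809: ggggcggggatATGCAAATatggtttgaaa
The octamer starts were 37 bases apart in PIM2, 108 in PRRC2A, 112 in POLM and 156 in E2F3. The pair had opposite strands in PIM2 and the same strand in the other 3 genes. Neither trait was particular to PIM2 among the 10 windows. SERPINA9 also had a spacing of 37 bases, on the same strand, and APOBEC1 also had opposite strands. The SERPINA9 window overlapped no OCA-B or OCT1 peak, and the APOBEC1 window no peak of any list. PRRC2A and POLM had no peak of MED1, CREBBP or EP300 in the window. E2F3 had CREBBP at 4.54 and EP300 at 4.84 but no MED1. PIM2 had all 3, but so did KCNN3 and ARHGAP25, with higher folds than PIM2 in each of the 3 lists. Their MED1 folds were 13.6 and 10.5, and their CREBBP folds 26.7 and 15.3. Of the 10 windows, 4 overlapped a CREBBP peak and 6 an EP300 peak.

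The coactivator peaks at the PIM2 start were set beside those at other strong OCA-B peaks. Of the 100 strongest OCA-B peaks with a summit within 1 kb of a protein-coding gene end, 92 overlapped OCT2, 98 OCT1, 82 MED1, 76 CREBBP and 87 EP300. The overlapping MED1 peaks had a median fold of 8.67, and 16 of the 100 overlapped a MED1 peak from the strongest 5% of that list. For CREBBP the median was 11.6 and the number 11, and for EP300 they were 11.1 and 12. The coactivator folds of PIM2, at 9.87, 10.8 and 14.1, lay near these medians. They lay below the medians for the 100 strongest OCA-B peaks at any place, which were 14.5 for MED1, 18.7 for CREBBP and 15.4 for EP300.

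Outside its start, PIM2 had 4 further regions, where a region is the union of peaks from any lists that overlap by at least 1 bp. The first, with its strongest summit 1.34 kb inside the gene, held every list except OCT1, and its 7 peaks had folds from 2.77 (OCT2) to 6.41 (MED1). A region 3.04 kb inside held CREBBP (5.72) and MED1 (4.41), and one 5.35 kb inside held CREBBP alone (3.91). Past the gene's far end, 6.27 kb from the start, OCA-B (6.90), OCT2 (4.79), MED1 (4.30) and EP300 (2.56) overlapped. The only OCT1 peak given to PIM2 was the one at the start. The region at the start ran over 2296 bases and also held 1 peak given to OTUD5, the next gene.

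**Figure D2:**
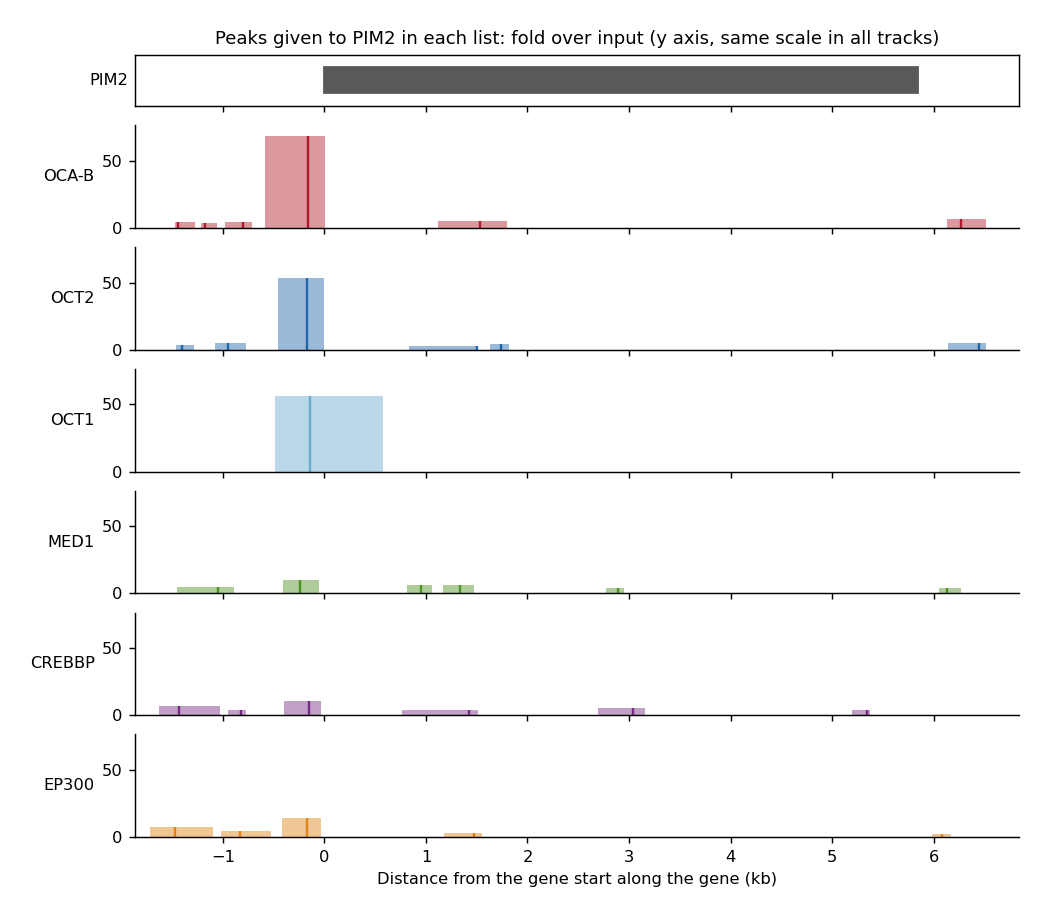
Peaks given to PIM2, with distance from the gene start in kb on the x axis and fold over input on the y axis; each track is 1 list, bars span the peak, thin lines mark summits and the grey box is the gene. The OCA-B, OCT2 and OCT1 tracks are dominated by the peak at the start, with folds of 68.3, 53.1 and 56.1, and all other peaks of the gene stay below 15.

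PIM1, on chromosome 6 from 37170152 to 37175428, had its strongest region away from the start. The region ran from 37154930 to 37157679, and its strongest summits, 1 for each list, lay within 68 bases of each other at about −14.5 kb from the start. All 6 lists had a peak there. CREBBP had a fold of 59.1 (519th in its list), OCT2 35.5 (1217th), OCA-B 30.4 (344th), MED1 29.4 (579th), EP300 28.5 (3841st) and OCT1 13.1 (1881st). No gene of the RefSeq table lies between this region and PIM1. Its extent of 2750 bases made it the longest of the 24 regions of the family.

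Several pileups at this region stood close to the highest value the counting allows. With 1 tag kept per position and strand, the pileup at a summit cannot pass 2 fragment lengths, and the EP300 pileup of 303 was 99.7% of that ceiling. The share was 98.6% in the OCT2 list, 94.8% in CREBBP, 81.1% in OCA-B, 70.4% in MED1 and 36.1% in OCT1. At the PIM2 start the OCA-B pileup reached 84.1% of its ceiling, the OCT2 pileup 82.8% and the OCT1 pileup 76.0%, against 9.45% for CREBBP and 10.9% for MED1. Over whole lists only 0.0668% (OCA-B) to 2.64% (EP300) of peaks reached 80% of the ceiling. The part of the ceiling in the folds at the PIM1 region was not tested.

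Inside PIM1, 2.13 kb after the start, a second region held all 6 lists. OCT2 reached a fold of 17.2, CREBBP 16.4, MED1 14.4, OCA-B 13.6 and EP300 11.4. Its OCT1 peak was one of the weakest of that list (fold 2.63, 23264th of 23571). With only peaks of −log10 q above 5 kept, this region no longer held OCT1, and PIM1 had 1 region in all 6 lists instead of 2.

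At the PIM1 start OCT1 was found without OCA-B and OCT2. An OCT1 peak with a fold of 16.6 (1052nd in its list) had its summit at −0.292 kb from the start and overlapped an EP300 peak of 6.87, and no OCA-B or OCT2 peak touched this region. OCT1 without OCA-B and OCT2 was also found in 2615 of 22131 promoter windows of protein-coding genes (11.8%), among 7804 windows with OCT1. Its summit at PIM1 lay at −47.5 bases from the centre of the mismatched octamer. About 1 kb before the start, a separate region held every list but OCT1, led by CREBBP at 12.4, with OCA-B at 4.23 and MED1 at 4.92. The OCT1 peak and the OCA-B and OCT2 peaks thus lay in neighbouring but distinct regions.

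Of the other PIM1 regions, 3 held every list except OCT1. They lay at −15.7 kb from the start (led by EP300 at 10.2), at −8.76 kb (EP300 at 14.8) and across the far end of the gene. The last of these, from 37175294 to 37177760, was made of 18 peaks, of which none passed a fold of 7.54. The other 3 regions, at −20.2, −7.71 and 13.3 kb from the start, held EP300 alone with folds of 5.52, 3.60 and 4.33.

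**Figure D3:**
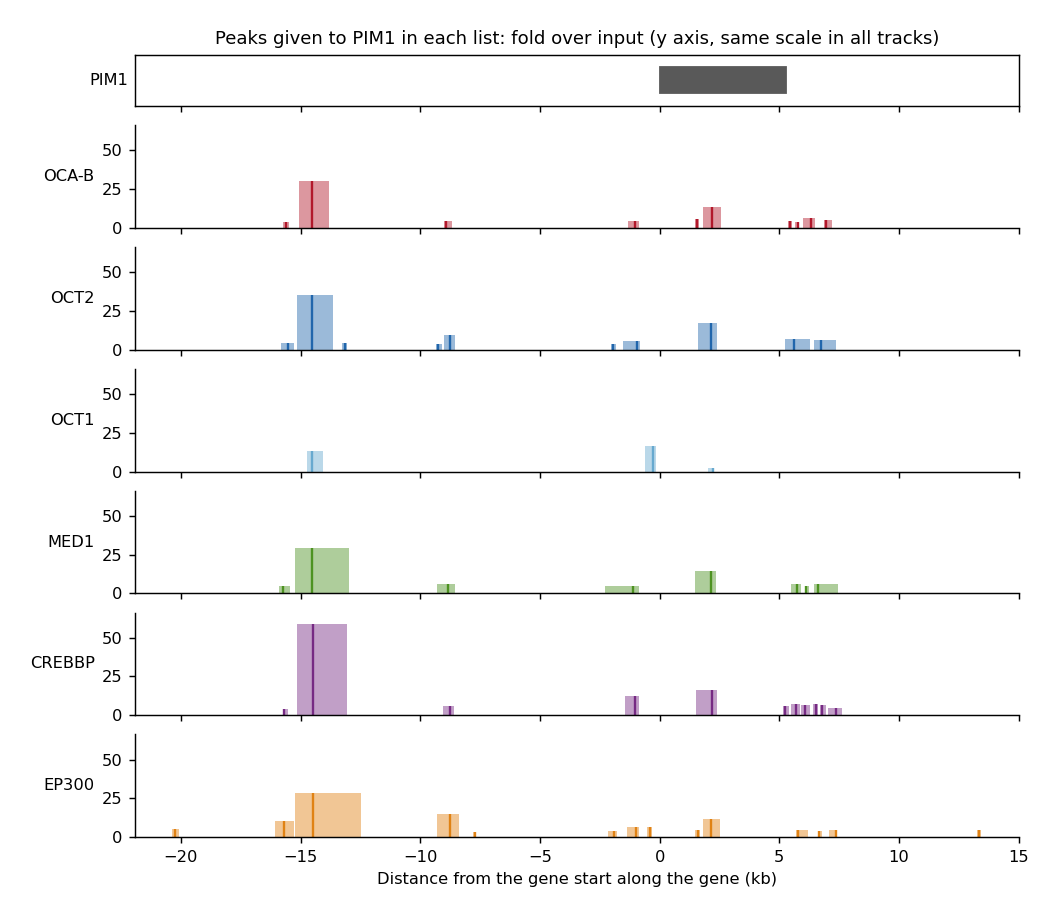
Peaks given to PIM1, with distance from the gene start in kb on the x axis and fold over input on the y axis; each track is 1 list, bars span the peak, thin lines mark summits and the grey box is the gene. All 6 tracks have a peak at about −14.5 kb, and at the start itself OCT1 has a fold of 16.6.

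PIM3, on chromosome 22 from 49960772 to 49964072, had 9 regions but none with all 6 lists. Of these, 4 held OCT1 alone, at −0.837, −0.436, 1.22 and 1.76 kb from the start, with folds of 5.00, 7.47, 6.23 and 4.15. No OCA-B peak lay within 1 kb of either end of the gene. A region at its far end held CREBBP (10.3) and OCT2 (5.48). The strongest OCA-B peak of PIM3 had a fold of 13.7 (5301st in its list) and lay at −15.3 kb from the start, with EP300 at 4.68 and OCT2 at 3.57. The only MED1 peak, with a fold of 6.06, lay in a region led by an EP300 summit (9.68) 15.8 kb after the start, together with CREBBP (7.79), OCT2 (5.06) and OCA-B (3.55). The remaining 2 regions held OCA-B, OCT1 and EP300 (10.2 kb after the start) and EP300 alone (13 kb).

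**Figure D4:**
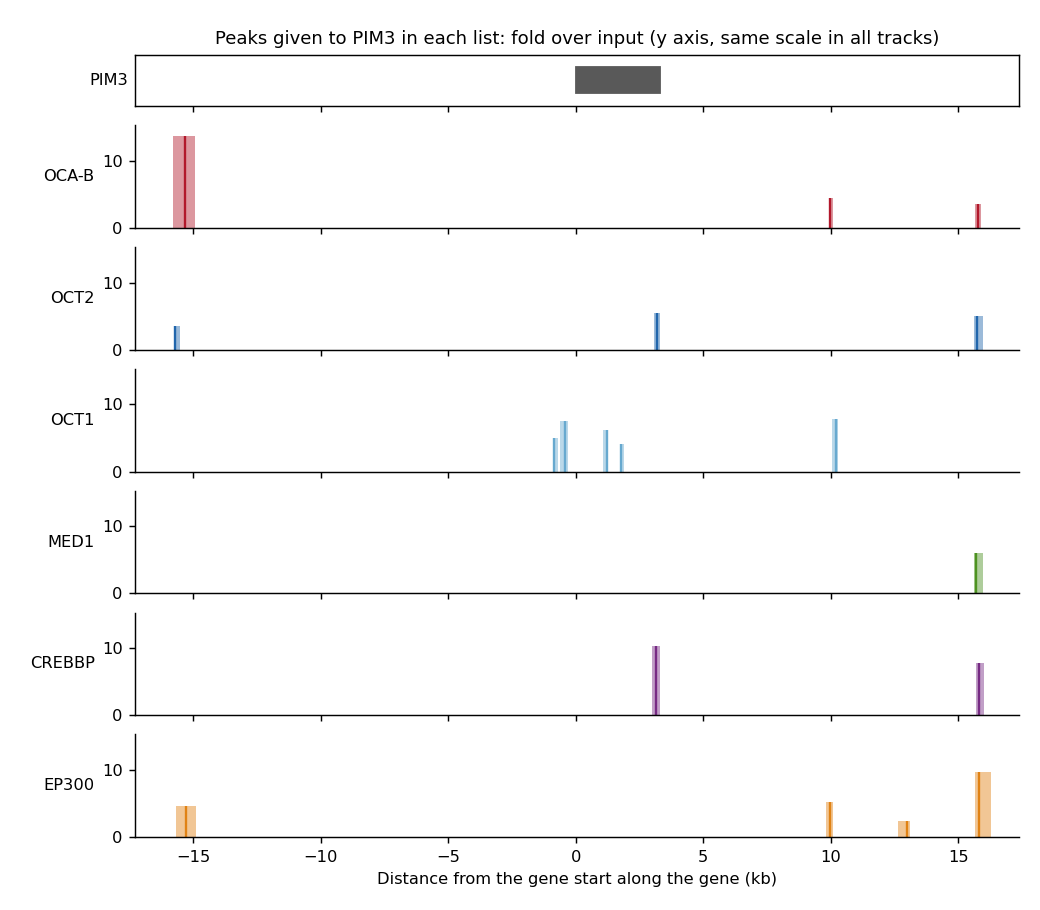
Peaks given to PIM3, with distance from the gene start in kb on the x axis and fold over input on the y axis, which ends near 15; each track is 1 list, bars span the peak, thin lines mark summits and the grey box is the gene. OCT1 is alone around the start, and the strongest OCA-B peak, with a fold of 13.7, lies at −15.3 kb.

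Within 1 kb of either gene end, PIM1 and PIM2 had peaks of all 6 lists, as 21.8% of protein-coding genes did, and PIM3 had OCT2, OCT1 and CREBBP. Over all protein-coding genes, 46.2% had an OCA-B peak there, 40.9% an OCT2, 41.9% an OCT1, 33.7% a MED1, 31.0% a CREBBP and 45.5% an EP300 peak. Nothing is read from the members' counts against these shares, since the genes were chosen with them known. By boundary fold, PIM2 stood 3rd of all genes in the OCA-B list, 19th in the OCT2 list and 24th in the OCT1 list. In the EP300 list it stood 1338th, in the MED1 list 1286th and in the CREBBP list 1613th. Genes that share a boundary peak count separately in these ranks. The boundary folds of PIM1 were 6.39 for OCA-B and 6.84 for OCT2, both from the region at its far end, 16.6 for OCT1 and 12.4 for CREBBP. With the summit required within 1 kb, the OCA-B value was 4.28 and the CREBBP value 7.14. PIM1 stood 375th for OCT1, 1265th for CREBBP and 5886th for OCA-B at its boundaries, and its region at −14.5 kb does not enter this count. For PIM3 the highest place was 1730th, for CREBBP.

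**Figure D5:**
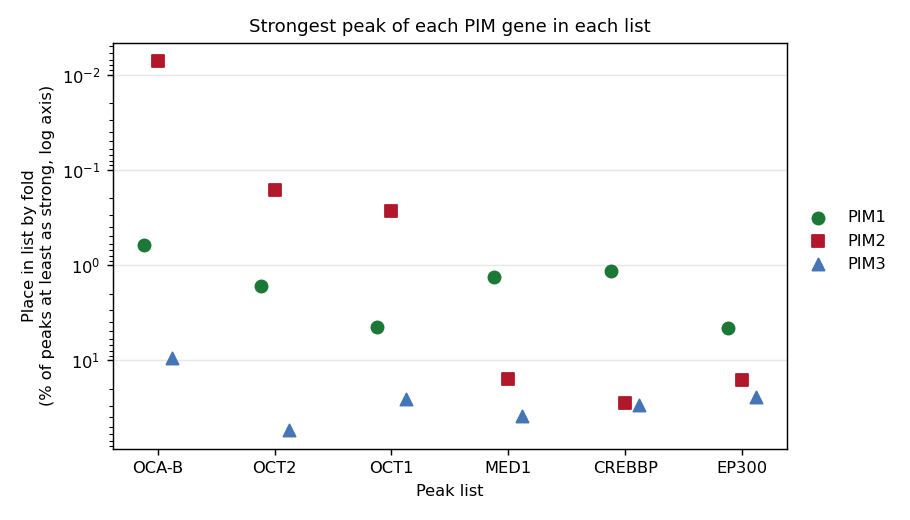
Place of the strongest peak given to each PIM gene within each list, as the percentage of peaks of that list that are at least as strong (log axis, stronger upward); symbols are genes and columns are lists. By fold PIM2 is above the other 2 genes for OCA-B and OCT1, PIM1 is above them for MED1, CREBBP and EP300, and PIM3 is lowest in every column; for OCT2 the higher place of PIM2 holds by fold only, since PIM1 has the higher pileup there (286 against 240).

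By the fold of the strongest peak, PIM2 was above PIM1 for OCA-B (68.3 against 30.4) and OCT1 (56.1 against 16.6). The OCA-B pileups of these peaks were close, at 249 for PIM2 and 240 for PIM1, or 84.1% and 81.1% of the ceiling. Within PIM1 the strongest OCT1 peak depended on the measure. The one at the start had the higher fold (16.6 against 13.1). The one in the region before the gene that held all 6 lists had the higher pileup (122 against 51) and −log10 q (90.7 against 47.7). For OCT2 the order depended on the measure. PIM2 had the higher fold (53.1 against 35.5), but PIM1 had the higher pileup, 286 against 240, at 98.6% of the ceiling, and −log10 q was 335.7 for PIM1 and 334.4 for PIM2. PIM1 was above PIM2 for CREBBP (59.1 against 10.8), MED1 (29.4 against 9.87) and EP300 (28.5 against 14.1). PIM3 had the lowest fold of the family in all 6 lists, with an OCA-B peak of 13.7, CREBBP of 10.3, EP300 of 9.68, OCT1 of 7.89, MED1 of 6.06 and OCT2 of 5.48. For CREBBP the strongest peaks of PIM2 and PIM3 were close by fold, but their pileups were 31 for PIM2 and 17 for PIM3.

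By number, PIM1 had 10 regions, PIM3 9 and PIM2 5, against a median of 3 over all protein-coding genes. The stretch of genome open to each gene by the rule differed, at 73.7 kb for PIM1, 33.8 kb for PIM3 and 7.96 kb for PIM2, whose neighbours lie close. Per 10 kb of that stretch PIM2 had 6.29 regions, PIM3 2.66 and PIM1 1.36, with a median of 0.482 over all genes. The shares of genes with at least as many per 10 kb were 0.811% for PIM2, 7.11% for PIM3 and 20.5% for PIM1. The value of PIM2 rests on 5 regions in a short stretch, and 95.7% of genes had one at least as long. By number of regions, 15.2% of genes had at least as many as PIM1, 17.4% as PIM3 and 35.6% as PIM2. Of the 24 regions of the family 3 (12.5%) held all 6 lists and 9 (37.5%) a single list. Among all 111561 regions the shares were 9.49% and 47.0%. At least 1 region in all 6 lists was given to PIM1 and PIM2, as to 31.4% of genes. A makeup of all lists except OCT1 was the most frequent in the family, with 6 regions, 4 of them at PIM1, and made up 10.7% of all regions. OCT1 alone made up 4.41% of all regions and 4 of the 9 at PIM3.

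The rule's limits fell differently around each gene. On the side of PIM2's start the last peak inside was EP300 at 1.47 kb (fold 7.55), and the first outside was MED1 at 1.57 kb (3.29), given to OTUD5. On its other side an OCT2 peak at 0.605 kb (4.79) was inside and an EP300 peak at 1.16 kb (8.17) went to SLC35A2. For PIM3 a CREBBP peak 12.5 kb past the far end (7.79) was the last inside, and an OCT2 peak at 15.6 kb (17.5) went to IL17REL. For PIM1 the last peak inside on the side of the start was EP300 at 20.2 kb (5.52), and the next was EP300 at 64.7 kb (4.45), beyond the 50 kb limit.

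Genes most like each PIM gene at their boundaries were found by Euclidean distance over 6 values, log2 of the highest fold within 1 kb in each list, with a fold of 1 where there was no peak. Nearest to PIM2 were EGLN2 (distance 1.33), an oxygen-sensing hydroxylase gene, ZNF428 (1.44) and ID2 (1.48), an inhibitor of E proteins, against a median distance of 10.7 over all genes. Their OCA-B folds were 31.7, 58.7 and 31.2 and their MED1 folds 11.9, 4.25 and 15.5. Nearest to PIM1 were EIF1 (0.550), a translation initiation factor gene, ARID4A (0.593) and HMGA1 (0.626). EIF1 had an OCT1 fold of 13.8 beside an OCA-B fold of 6.57, and HMGA1 22.4 beside 5.73. Nearest to PIM3 were MAFG (0.615), CBX6 (0.782) and LOC107987020 (1.17). The PIM genes lay farther from each other than from these nearest genes. The distances were 5.01 between PIM1 and PIM2, 4.81 between PIM1 and PIM3 and 9.04 between PIM2 and PIM3. The median distance over all genes was 6.69 from PIM1 and 5.07 from PIM3. Only the distance between PIM2 and PIM3 was above one of these medians, that of PIM3.

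Genes that act before and after the PIM kinases were counted in the same way, from lists put together with earlier results in view. Of 11 JAK and STAT genes, 4 had a region in all 6 lists (JAK1, JAK2, STAT2 and STAT6), beside 31.4% of all genes. Their median was 6 regions a gene, with the most at JAK1 (47) and JAK2 (10). Per 10 kb of the stretch open to each gene, the median was 0.865, beside 0.482 over all genes, with 1.48 at JAK1 and 0.448 at JAK2. Among 12 cytokine receptor genes 8 had such a region (all except IL6ST, IL2RG, IL6R and IL13RA1), with a median of 13.5 regions, or 2.74 per 10 kb, and the most at IL4R (29, or 3.14 per 10 kb) and IL7R (23, or 4.09). Among 8 other STAT target genes 6 had one (all except CISH and CCND2), with a median of 10 regions, or 2.52 per 10 kb. The most were at BCL2L1, a survival gene (29, or 3.77 per 10 kb), and BCL6, the germinal centre repressor (23, or 2.99).

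Of 15 genes for PIM substrates 12 had a region in all 6 lists (all except RUNX3, EIF4B and CDC25A), beside 31.4% of all genes. Their median was 12 regions, or 1.56 per 10 kb. FOXO1, a transcription factor gene of germinal centre B cells, had 78 (4.06 per 10 kb) and SND1 34 (0.670 per 10 kb). Among 16 other kinases of survival or of the CAMK group, to which PIM kinases belong, 10 had one. Their median was 7.5 regions, or 0.827 per 10 kb, with 64 at CAMK2D (1.62 per 10 kb) and 27 at DAPK1 (0.999 per 10 kb). AKT1, a kinase with substrates in common with PIM, had 1 region. Of 18 other targets of aberrant somatic hypermutation 17 had a region in all 6 lists (all except CD83), with a median of 22.5 regions, or 2.98 per 10 kb, and the most at PAX5 (47, or 1.60 per 10 kb) and ZFP36L1 (34, or 3.49). BCL6, SOCS1, CXCR4 and SGK1 stand in 2 of these lists. Peaks of all 6 lists at the gene boundary were found for 21.8% of all protein-coding genes. In the gene lists, in the order given, they were found for 4 of 11, 7 of 12, 3 of 8, 8 of 15, 4 of 16 and 10 of 18 genes. No gene of these 6 lists had a boundary fold above that of PIM2 for OCA-B, OCT2 or OCT1. Nothing is read from this, since PIM2 was chosen with these folds in view. Of the 18 hypermutation targets, 11 were above PIM2 by MED1 fold, 8 by CREBBP fold and 7 by EP300 fold. In the other lists the numbers ran from 0 to 5. Over all protein-coding genes, 6.45% (MED1), 8.11% (CREBBP) and 6.71% (EP300) had at least the fold of PIM2.

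After removal of duplicates the libraries held 12357450 (CREBBP) to 27885791 (EP300) tags, and the shared input held 37517450. The lists differ in length, from 23571 (OCT1) to 82569 (EP300) peaks, and absence from the shortest list is not shown to be absence of the factor. A check of B cell identity, which cannot single out the OCI-Ly7 line, used marker genes. All 8 B cell marker genes had a region in all 6 lists, beside 31.4% of all genes. The others were 1 of 6 T cell genes (LCK), 0 of 4 myeloid, 0 of 3 erythroid, 1 of 3 liver (TTR) and 2 of 3 neuron genes (RBFOX3 and SYT1). The stretch open to RBFOX3 was 609 kb and to SYT1 688 kb, with a median of 60.8 kb over all genes. Median regions per 10 kb were 4.76 for B cell, 1.03 for T cell, 0.248 for myeloid, 0.199 for erythroid, 0 for liver and 0.145 for neuron genes. The markers show occupancy and not expression.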

How the data were processed

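Peak lists of 6 ChIP-seq libraries from OCI-Ly7 cells were used, 1 library a factor, and the input was used only as the authors' control. Per the submitters' processing notes, the tools were MACS2 2.1.1.20160309, SAMtools 1.3.1, Bowtie2 2.3.2.2 and CASAVA 1.8.2, with build hg38. Per the file headers, MACS2 called each library alone against the input at a q threshold of 0.05, with 1 tag kept per position. The deposited values per peak are the pileup signal at the summit, the fold over the local input, and −log10 of the p-value and q-value, per the file headers. Per the same headers MED1 and CREBBP show a redundant rate of 0, against 0.08 to 0.2 elsewhere, and whether their duplicates were removed earlier was not tested.

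Python 3.11.15, numpy 2.4.6 and pandas 2.3.3 were used for all steps here. Gene ends, names and sequences came from RefSeq GRCh38.p14, which is the files' build; the table gives no exons, and no protein sequences or genome were used. Peaks of chromosomes 1 to 22 and X were assigned and merged (overlap of 1 bp or more), and both steps were checked on simulated data against brute force. A boundary peak has any part within 1 kb of either gene end. The sequence table held 22131 windows of 15811 protein-coding genes, some with several starts, so it is not complete. No test was made, because each factor has 1 library. The members and gene lists were chosen with earlier results of these data known. Genes were named by rule: the members, 2 neighbours on each side, the 3 genes most like each member, and the first 2 of each list by regions; genes named for small counts and the double-octamer genes were added after their values were seen. Alternatives were stricter q, other windows, lncRNA ends, other ways of joining peaks and lists shortened to 23571 peaks.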

Additional observations from a re-analysis of the deposited data

How the results depend on the processing

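With only peaks of −log10 q above 5, PIM1 kept 1 region in all 6 lists, and the OCA-B peaks given to PIM2 and PIM3 numbered 3 and 1. With each list shortened to 23571 peaks, PIM1 had 2 OCA-B, 3 OCT2, 7 CREBBP and 4 EP300 peaks. PIM2 then had 3 regions, 2 OCA-B and 3 MED1 peaks and 1 each of OCT2, CREBBP and EP300, and PIM3 had 1 OCA-B, 0 OCT2 and 0 EP300 peaks. Summits up to 100 kb away gave PIM1 16 regions and 6 OCT1 peaks, and joining peaks by summits within 250 bp gave it 16 regions. With any part of a peak within 500 bp, or with the summit within 1 kb, the highest boundary folds of PIM1 were 4.28 for OCA-B and 7.14 for CREBBP. With 1 mismatch allowed, a choice made after the data were seen, PIM1 had 1 octamer-like site. By these counts and folds, the window of 25 kb, lncRNA ends, any overlap with the gene and a 50% overlap for joining changed no count by more than 1.5 times. The strongest peaks at the PIM2 start were the same under both boundary definitions. With 1 library a factor no replicate could be left out, and the precision of a fold is unknown. The shortened and stricter lists hold fewer peaks by construction, and the cause of the other shifts was not tested.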

Other observations

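Some neighbours of the PIM genes had strong peaks of their own. KCND1, a potassium channel gene 42.4 kb from PIM2 and the second gene on that side, had OCT2 at 55.9, OCA-B at 44.7, CREBBP at 23.1, OCT1 and EP300 both at 22.1 and MED1 at 11.1 at its boundaries. SLC35A2, 1.22 kb from PIM2, had CREBBP at 20.5 and OCA-B at 11.0, and PQBP1 had OCA-B at 10.9. OTUD5, 3 kb from the PIM2 start, had 14 regions, of which 3 held all 6 lists, with OCA-B at 12.8 and no OCT2 or CREBBP peak at its boundaries. FGD2, 141 kb before PIM1, had 15 regions, with boundary folds of 20.2 for CREBBP, 19.4 for EP300 and 18.2 for OCT2, and MTCH1 beyond it had 4. TMEM217B and TMEM217, which have the same annotated ends, on the other side of PIM1, had OCA-B at 4.32 and OCT1 at 5.17 only. Around PIM3, CRELD2 had 7 regions and ALG12 3, both with OCT1 at 5.72 and MED1 at 4.57 at their boundaries, and IL17REL and TTLL8 had no peak at theirs.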
